A study of Mus musculus with 6 samples.

Results

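The TIF1 family (transcription intermediary factor 1) comprises Trim24, Trim28, Trim33 and Trim66, and these 4 genes were taken by symbol from the 55487 genes of the count table. Transcripts came from muscle stem cells, also called satellite cells, of mice aged 10 weeks at 60 h after cardiotoxin (CTX), a venom toxin that destroys muscle fibres and starts their repair, and were measured by RNA sequencing. The 3 control libraries came from mice labelled WT and given oil. The 3 knockout (KO) libraries came from mice labelled KO for Setdb1 and given tamoxifen, a drug used to switch on inducible recombinases. Drug and genotype changed together and cannot be told apart. The labels name neither the recombinase and the promoter that drives it, nor the deleted exon, nor how many mice gave each library.

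TIF1 proteins carry B-boxes and a coiled coil towards one end, preceded by a RING finger in TRIM24, TRIM28 and TRIM33, and a PHD finger followed by a bromodomain at the other. TRIM28 (KAP1, TIF1 beta) is the shared corepressor of the KRAB zinc finger proteins. It brings SETDB1, which methylates a lysine of histone H3, and HP1 proteins to the sites those factors bind, retroelements among them. TRIM24 (TIF1 alpha) is a coregulator of retinoic acid receptors and other nuclear receptors and a ubiquitin ligase of p53. TRIM33 (TIF1 gamma) binds SMAD proteins of the TGF-beta pathway, and TRIM66 (TIF1 delta) is best known from testis. TRIM24, TRIM28 and TRIM33 can form complexes with each other.

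Libraries held 4052569 to 5690844 counts, of which 2002124 to 3050460 fell on protein-coding genes. Setdb1, the targeted gene, was measured at 34.8, 40.5 and 32.1 CPM (counts scaled to the effective library size) in control libraries 1 to 3 and at 16.5, 12.7 and 14.7 CPM in KO libraries 1 to 3. Its log2 fold change was -1.30 (SE 0.16, edgeR adjusted p = 2.09e-04), in the direction of the labels. All 8 satellite cell markers were detected, and their summed level was 874 to 962 CPM in control and 1003 to 1239 CPM in KO libraries. Summed markers of other cells ranged from 1.6 to 1984 CPM in control and 4.26 to 701 CPM in KO libraries for neutrophils, from 609 to 1355 and 1205 to 1766 CPM for fibro-adipogenic cells, and from 55.3 to 85.3 and 99.3 to 119 CPM for mural cells. Macrophage markers reached at most 83.9 CPM, endothelial 14.4 CPM, Schwann cell 6.65 CPM, lymphocyte 3.51 CPM and erythroid 0.53 CPM in any library. Hba-a2 and Hbb-bt, haemoglobin genes, had no count. The satellite cell and mural sums did not overlap between the groups, which rested on Myod1 (1 of 8 satellite cell markers called) and on Acta2 and Tagln (2 of 5 mural markers tested). Without these called genes the sums overlapped, at 736 to 821 CPM in control and 765 to 877 CPM in KO libraries for satellite cells and at 12.1 to 30.1 and 23.4 to 29.7 CPM for mural cells. The genes left out were picked by their calls in the same libraries, so this overlap cannot show whether cell content was alike. The part of these markers in the results was not tested.

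Of the 4 genes, all of which passed the low-count filter, Trim24 alone was called, and it was higher in KO cells. Among all 11224 genes tested, 2.83% were called at an adjusted p under 0.05, 2.22% were called higher, 0.615% lower, and 1.29% higher by at least 2-fold. With DESeq2 1.26% and with limma-voom 2.72% of the genes they tested were called. The counts of called genes in the lists below are to be read against these shares. Trim28, the partner of SETDB1, was measured slightly lower in KO cells without passing the test, Trim33 was at nearly the same level in both groups, and Trim66 was low and variable. In bulk libraries, a change in the number of cells that express a gene and a change in RNA per cell cannot be told apart.

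**Figure D1:**
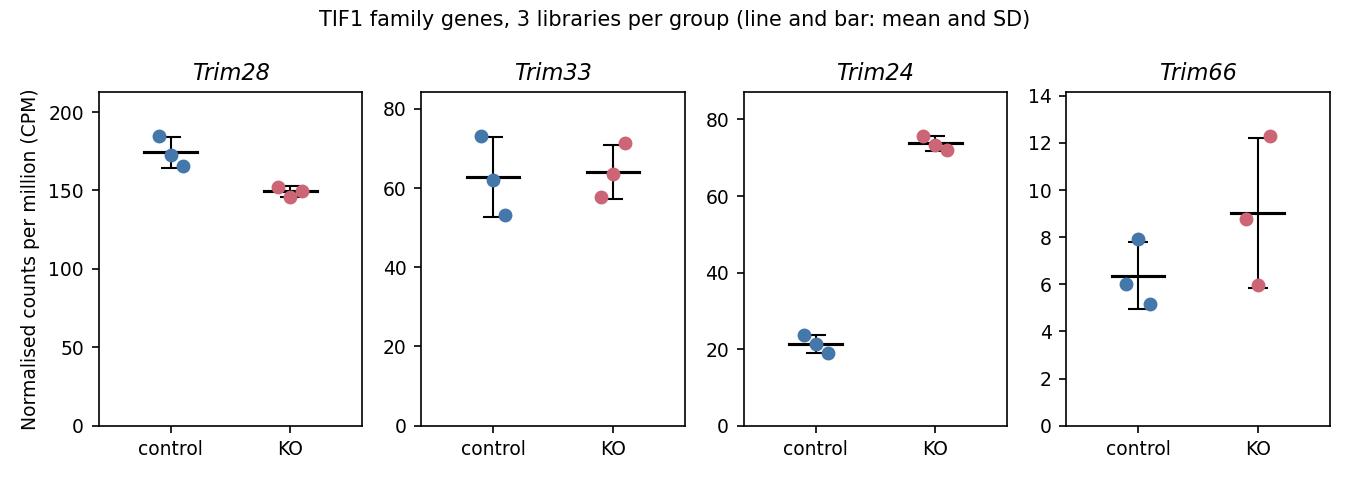
CPM (vertical axes, linear and starting at 0, a separate scale for each gene) of the TIF1 family genes in the 3 control and 3 Setdb1 KO libraries. Points are libraries, the thick line is the mean and the bar is the SD. The Trim24 points of the KO libraries lie between 72.1 and 75.8 CPM, all above the controls at 19.0 to 23.6 CPM.

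Trim24 (ENSMUSG00000029833, chromosome 6, 37870811 to 37966296, plus strand, GRCm38) was counted 118, 102 and 103 times in the control libraries and 285, 357 and 369 times in the KO libraries. These counts correspond to 23.6, 21.3 and 19.0 CPM in controls and 75.8, 73.3 and 72.1 CPM in KO libraries. Every KO library was well above the highest control, and libraries of a group lay close together. The groups did not overlap for 24.3% of all genes tested. The mean rose from 21.3 ± 2.30 to 73.7 ± 1.88 CPM (mean ± SD, n = 3 libraries each), a log2 fold change of 1.79 (SE 0.13, 95% interval 1.52 to 2.06, edgeR adjusted p = 8.09e-07). On the linear scale this was 3.46-fold (95% interval 2.86 to 4.17). By p-value Trim24 ranked 10 among all genes tested, and by fold it ranked 69 among the 249 genes called higher. In the 16 alternative analyses its log2 fold change stayed between 1.69 and 1.86 with an adjusted p of at most 4.11e-05. Without control library 3, which had the highest neutrophil sum (1984 CPM), it was 1.71. Of the 50-base words in Trim24 transcripts, 3.63% occur in transcripts of other annotated genes.

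The RefSeq promoter table (GRCm38.p6) lists a pair of start sites for Trim24, 1 for Trim28, 1 for Trim66 and none for Trim33. The 250 bases before each start are shown because the count table has a single value per gene and does not separate the starts, so that the 3.46-fold change cannot be assigned to either Trim24 start. Capitals mark the CCAAT box (CCAAT) and the GC box (GGGCGG) on either strand, and no pair of the capital stretches overlaps.
Trim24, start at 37870811, chr6:37870561-37870810, plus strand: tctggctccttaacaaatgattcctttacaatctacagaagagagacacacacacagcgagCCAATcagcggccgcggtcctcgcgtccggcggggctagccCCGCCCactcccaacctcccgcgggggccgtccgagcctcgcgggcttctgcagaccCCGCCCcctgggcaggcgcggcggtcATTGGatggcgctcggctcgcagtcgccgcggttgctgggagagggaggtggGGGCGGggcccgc
Trim24, start at 37900487, chr6:37900237-37900486, plus strand: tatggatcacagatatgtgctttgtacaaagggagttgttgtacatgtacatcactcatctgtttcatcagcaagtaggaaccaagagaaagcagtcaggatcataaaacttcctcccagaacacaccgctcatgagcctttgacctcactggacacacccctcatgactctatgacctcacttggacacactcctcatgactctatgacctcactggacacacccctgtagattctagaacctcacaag
Trim28, start at 13024152, chr7:13023902-13024151, plus strand: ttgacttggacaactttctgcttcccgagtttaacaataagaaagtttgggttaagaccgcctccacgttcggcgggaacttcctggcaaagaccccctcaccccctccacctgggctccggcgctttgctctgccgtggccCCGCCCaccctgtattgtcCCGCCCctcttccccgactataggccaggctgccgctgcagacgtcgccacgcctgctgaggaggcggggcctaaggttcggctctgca
Trim66, start at 109508134, chr7:109508135-109508384, minus strand: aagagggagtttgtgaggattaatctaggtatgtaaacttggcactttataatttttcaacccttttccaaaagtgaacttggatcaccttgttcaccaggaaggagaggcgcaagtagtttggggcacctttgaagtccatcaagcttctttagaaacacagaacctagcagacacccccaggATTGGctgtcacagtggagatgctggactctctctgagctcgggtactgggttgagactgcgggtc

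The first Trim24 window had 69.6% G and C and 27 CpG pairs, more than 91.4% of the 32851 windows in the table. The second Trim24 start lies 29.7 kb downstream inside the gene, and its window had 46% G and C and 1 CpG pair. The Trim28 window had 17 CpG pairs and the Trim66 window 3, against a median of 6 over all windows. The first Trim24 window held 2 CCAAT boxes and 3 GC boxes, the Trim28 window 2 GC boxes and the Trim66 window 1 CCAAT box. Of all windows of this length, 33.9% held a CCAAT box and 32.7% a GC box. The p53 half-site, a palindromic pattern searched on both strands, matched once, 157 bases before the first Trim24 start, where its last base is the first base of a GC box. That pattern occurs in 7.13% of all windows, and a match of letters does not show binding. The antioxidant response element core (TGANNNNGC) matched once each in the Trim28 and Trim66 windows, against 35.2% of all windows. The E-boxes CAGCTG and CACGTG, found in 13.0% and 6.02% of all windows, had no match in these. All motifs were searched on both strands.

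Trim28 (ENSMUSG00000005566, chromosome 7, 12999114 to 13031035, plus strand) had the most counts of the family, with 2647 in the control and 2050 in the KO libraries. It was measured at 185, 173 and 166 CPM in controls and at 152, 146 and 150 CPM in KO libraries. All KO libraries were below all controls, as they were for 11.5% of the genes tested. The means were 174 ± 9.88 and 149 ± 3.34 CPM, a log2 fold change of -0.22 (SE 0.11, 95% interval -0.46 to 0.01, edgeR adjusted p = 0.312). A level under 0.727-fold lies outside the interval. The adjusted p was 0.541 with DESeq2 and 0.30 with limma-voom. Zbtb45 lies on the opposite strand within the annotated span of Trim28, and the exons of the genes share no base.

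Trim33 (ENSMUSG00000033014, chromosome 3, 103279293 to 103358775, plus strand) was measured at 73.3, 62.0 and 53.2 CPM in controls and at 57.7, 63.4 and 71.3 CPM in KO libraries. The libraries of the groups covered much the same range. The means were 62.8 ± 10.1 and 64.2 ± 6.84 CPM, and the log2 fold change was 0.03 (SE 0.14, 95% interval -0.26 to 0.32, edgeR adjusted p = 0.929). A rise of more than 1.25-fold or a level under 0.837-fold lies outside this interval.

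Trim66 (ENSMUSG00000031026, chromosome 7, 109449006 to 109508134, minus strand) had 30, 38 and 28 counts in the control and 33, 29 and 63 in the KO libraries, the fewest of the family. It was measured at 6.01, 7.93 and 5.17 CPM in controls and at 8.78, 5.95 and 12.3 CPM in KO libraries, so that the groups overlapped and KO library 3 was highest. The log2 fold change was 0.51 (SE 0.29, 95% interval -0.12 to 1.13, edgeR adjusted p = 0.385). Without KO library 3 it was 0.19. On the linear scale the interval runs from 0.923-fold to 2.19-fold, the widest of the family.

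**Figure D2:**
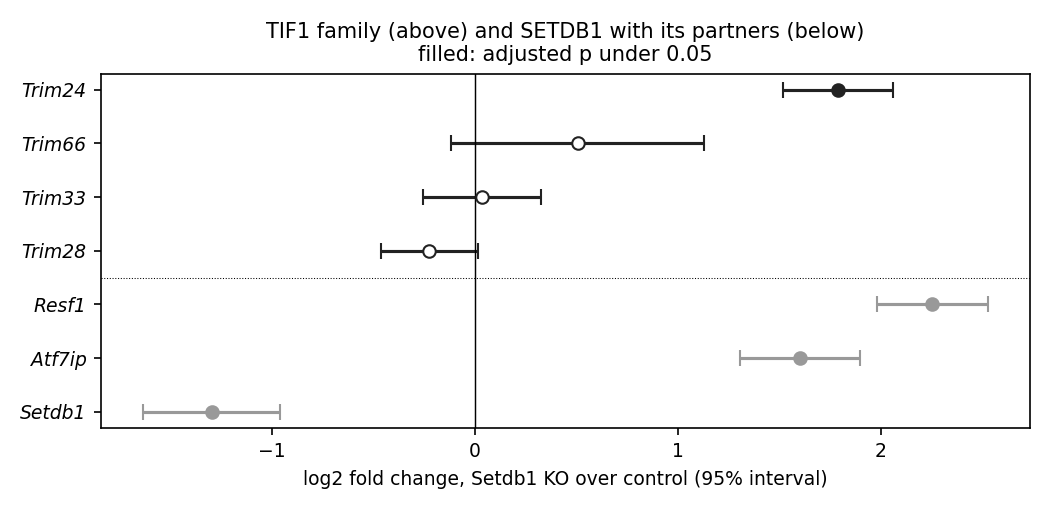
Log2 fold change of Setdb1 KO over control with its 95% interval (horizontal axis) for the TIF1 family genes, above the dotted line, and for Resf1, Atf7ip and Setdb1, below it. Filled points passed an edgeR adjusted p of 0.05. Trim24 is at 1.79 with an interval clear of 0, while the intervals of Trim66, Trim33 and Trim28 include 0.

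Levels of different genes were compared as TPM, which divides counts by the length of a gene's merged exons and scales them over protein-coding genes. In control cells the order was Trim28 at 216 ± 33.1 TPM, Trim33 at 33.2 ± 8.48, Trim24 at 12.9 ± 2.63 and Trim66 at 3.24 ± 0.83 (mean ± SD, n = 3). By merged exons, no neighbours in this order overlapped between their libraries. In KO cells Trim28 was at 182 ± 9.26 TPM, Trim24 at 43.8 ± 2.33, Trim33 at 33 ± 3.00 and Trim66 at 4.51 ± 1.59, again with no overlap of neighbours. Trim24 and Trim33 thus changed places. The ratio of the Trim24 to the Trim33 level was 0.371, 0.395 and 0.412 in the control libraries and 1.51, 1.33 and 1.16 in the KO libraries. With the longest transcript as length instead, it was 0.708 to 0.785 in controls and 2.22 to 2.88 in KO libraries. By that length the control libraries of Trim24 (17.6 to 26.1 TPM) and of Trim33 (22.4 to 36.9 TPM) overlapped. Among protein-coding genes tested, Trim24 stood above 37.2% by mean TPM over merged exons in control and above 73.4% in KO cells. Trim28 stood above 95% and 94.1%. With the longest transcript as length, Trim24 stood above 50.2% and 82.7% and Trim28 above 94.6% and 93.6%.

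The makeup of the family shifted accordingly. Trim24 made up 4.85% ± 0.18 of the summed family level per length in control and 16.6% ± 0.59 in KO libraries, or 7.88% and 25.2% with the longest transcript as length. The share of Trim28 was 81.5% ± 1.31 in control and 69.1% ± 1.03 in KO libraries, that of Trim33 12.4% ± 1.10 and 12.6% ± 1.25, and that of Trim66 1.22% ± 0.27 and 1.70% ± 0.57. With the longest transcript the Trim33 share was 10.6% in control and 9.98% in KO libraries, so that its small difference had no stable sign. Since shares sum to the whole, a higher share of 1 gene lowers the others without any change in their own level. Relative to Trim28, the TRIM protein that recruits SETDB1, the Trim24 level was 0.0561 to 0.0623 in control and 0.235 to 0.245 in KO libraries, or 0.0923 to 0.103 and 0.386 to 0.404 with the longest transcript as length.

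**Figure D3:**
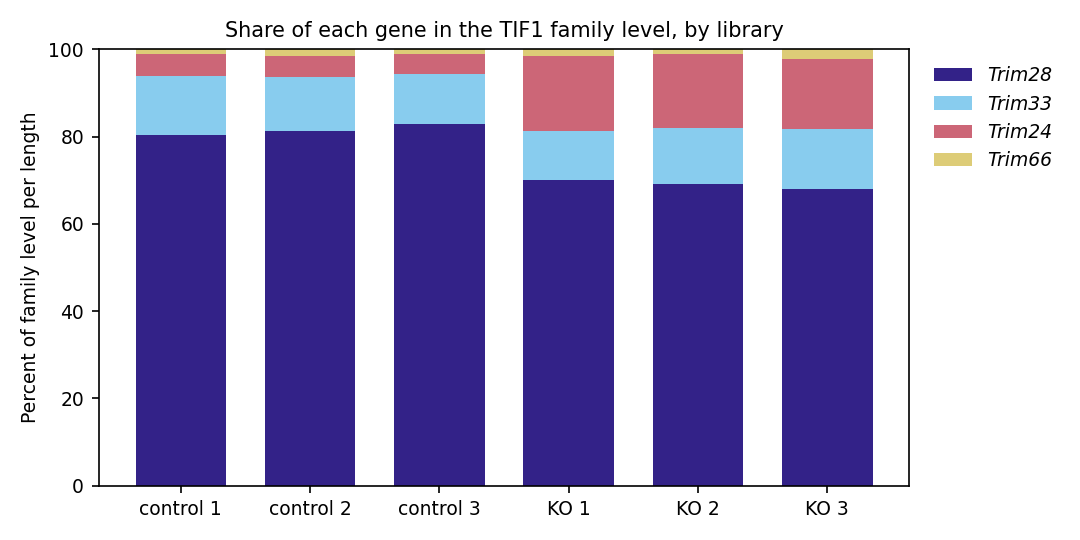
Share of each gene in the summed TIF1 family level per length, in percent (vertical axis), for each of the 3 control and 3 KO libraries. The Trim24 segment takes 4.65% to 5.01% in controls and 16% to 17% in KO libraries, and Trim28 is the largest segment in every library.

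Other TRIM genes, which encode B-box and coiled coil proteins outside the TIF1 family, most of them with a RING finger, were described beside it. Of 64 in the table, 20 had enough counts to test, and edgeR called 0 of them (unadjusted p under 0.05: 3 higher, 2 lower). Of all 11224 genes tested, 17.7% had an unadjusted p under 0.05, 1132 higher and 857 lower, and the unadjusted counts of this and the following lists are to be read against that share. DESeq2 called 0 and limma-voom 1, Trim44. Their median log2 fold change was 0.17, against 0.01 over all genes tested. The most abundant were Trim59, at 78.4 ± 6.03 and 58.9 ± 8.98 CPM (adjusted p = 0.115), Trim8, at 60.7 ± 1.88 and 77.5 ± 18.5 CPM (adjusted p = 0.239), and Trim35, at 52.7 ± 4.61 and 58.2 ± 3.42 CPM (adjusted p = 0.559). Trim44, chosen after its values were seen, was at 37.2 ± 6.09 and 53.6 ± 2.14 CPM, with an edgeR adjusted p of 0.0519. Its test passed with limma-voom (0.0481), with upper quartile factors (0.0405), with mitochondrial and ribosomal RNA genes removed (0.0439) and without control library 1 (0.0268). In the other 12 of 16 alternative analyses it did not pass (adjusted p up to 0.353).

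No gene near Trim24 passed the test. The nearest tested genes on either side, Ptn, Creb3l2, D630045J12Rik and Zc3hav1l, had log2 fold changes of 0.25, 0.63, -0.25 and -0.42 (adjusted p = 0.787, 0.16, 0.576 and 0.484). Creb3l2, 429 kb away, passed without control library 1 (adjusted p = 0.0142). Within 1 Mb of Trim24, edgeR called 0 of 9 tested genes. Within 1 Mb of Trim28, Trim33 and Trim66, 1 of 14, 0 of 15 and 0 of 18 were called, the 1 being Zfp110, which was higher. None of the nearest tested genes on either side of Trim28 (Zfp324, Zfp446, Zbtb45 and Chmp2a), Trim33 (Dennd2c, Bcas2, Olfml3 and Hipk1) or Trim66 (Mrpl17, Eif3f, Rpl27a and Snora3) passed in edgeR. Mrpl17 lies 3638 kb from Trim66, and Ptn lies 1061 kb from Trim24, both beyond that window.

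Of 7 tested genes for the partners that TRIM28 brings to chromatin, Resf1 and Atf7ip rose and Setdb1, the deleted gene, fell. Of all genes tested, 2.22% were called higher and 0.615% lower. Resf1, a silencing factor of retroelements, had a log2 fold change of 2.25, and Atf7ip, whose product stabilises SETDB1, one of 1.6. The other 4, Smarcad1 and the HP1 genes Cbx1, Cbx3 and Cbx5, did not pass, and the list's median was -0.33. In the NuRD complex, a histone deacetylase and remodelling complex that also binds TRIM28, edgeR, DESeq2 and limma-voom each called 0 of 13 (unadjusted p under 0.05: 0 higher, 1 lower), and the median was -0.12. Chd4, its remodelling ATPase, was at 363 ± 27.8 and 325 ± 26.5 CPM (adjusted p = 0.544), and the histone chaperone gene Rbbp4 at 237 ± 8.87 and 199 ± 6.96 CPM (adjusted p = 0.251).

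KRAB zinc finger genes with known targets supply the DNA contact of TRIM28. Of 6 tested, Zfp809, which silences murine leukaemia proviruses, was measured at 9.81, 6.26 and 8.68 CPM in controls and 15.4, 16.6 and 20.7 CPM in KO libraries. All KO libraries were above all controls, as they were for 12.8% of the genes tested. The log2 fold change of Zfp809 was 1.09 (SE 0.21, edgeR adjusted p = 0.0085). Its adjusted p was 0.111 with DESeq2, 0.0567 when control library 2 was left out and 0.06 when KO library 3 was, which ended the call. The median of the 6 was -0.10. In the SUMO pathway, which modifies TRIM28 and favours its contact with SETDB1, edgeR, DESeq2 and limma-voom each called 0 of 16 (unadjusted p under 0.05: 1 higher, 2 lower), and the median was -0.15. Sumo2 was at 183 ± 23.0 and 173 ± 12.7 CPM (adjusted p = 0.803).

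Phosphorylation of TRIM28 is known to control its work with MYOD, a master regulator of the myogenic programme. Of 11 tested genes for TRIM28 kinases, phosphatases and MYOD partners, Myod1 alone passed, with a log2 fold change of 1.04 (edgeR adjusted p = 7.79e-04), and the median of the list was -0.002. Rps6ka5 and Atm, which encode TRIM28 kinases, were not called.

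For TRIM33, 22 genes of TGF-beta and BMP ligands, receptors and SMADs were tested, and edgeR, DESeq2 and limma-voom each called 0 (unadjusted p under 0.05: 3 higher, 1 lower), and the median was 0.01. Usp9x, a deubiquitinase of SMAD4, was at 288 ± 36.0 and 298 ± 31.7 CPM, and Bmpr2, a BMP receptor gene, at 129 ± 26.7 and 132 ± 9.78 CPM (adjusted p = 0.886 and 0.93). Without the low-count filter Inhba was called, and Tgfbr3 without control library 1. Of 11 SMAD target genes tested, edgeR called 2 higher, Id1 among them, and 0 lower (unadjusted p under 0.05: 4 higher, 0 lower). The median of the list was 0.07. DESeq2 and limma-voom each called 2, Id1 not among those of DESeq2 (adjusted p = 0.191). Id1, an inhibitor of differentiation factors, was at 42.2 ± 2.71 and 62.2 ± 6.03 CPM (log2 fold change 0.56, edgeR adjusted p = 0.0210). The Id1 call ended in 7 of 16 alternative analyses (adjusted p up to 0.191), and leaving out 1 library left at most 1 of the list called. Over all 16 alternatives, 0 to 3 of the list were called higher.

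For TRIM24, only 7 of 16 genes for retinoic acid receptors, enzymes and targets had enough counts, and edgeR, DESeq2 and limma-voom each called 0 (unadjusted p under 0.05: 1 higher, 0 lower), and the median was 0.19. Rara, a retinoic acid receptor gene, was at 22.3 ± 4.64 and 20.1 ± 0.33 CPM (adjusted p = 0.682), and Rdh10, a retinol dehydrogenase gene, at 29.3 ± 5.47 and 33.3 ± 0.23 CPM (adjusted p = 0.559). Cyp26a1 and Cyp26b1, targets of the pathway, were under the filter. Of 17 tested genes of p53 and its targets, 8 were called higher and 0 lower, with a median of 0.68. Over all genes tested, 2.22% were called higher and 0.615% lower, and the median was 0.01. The log2 fold change was negative in 3 of the list, Trp53 (-0.15), Mdm4 (-0.18) and Sesn1 (-0.02). Trp53inp1, Ccng1, Mdm2 and Ephx1 had log2 fold changes of 2.21, 1.59, 1.06 and 2.06. Leaving out any 1 library left 7 or 8 called. Whether these changes and that of Trim24 are connected was not tested.

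Among 13 other genes whose products join a PHD finger to a bromodomain, edgeR, DESeq2 and limma-voom each called 0 (unadjusted p under 0.05: 0 higher, 4 lower). The log2 fold change was negative in 12 of these 13, against 5512 of all 11224 genes tested, and the median was -0.18. Values were also mostly negative in the partner (5 of 7), NuRD (11 of 13), KRAB (5 of 6), SUMO (11 of 16) and TRIM28 kinase (6 of 11) lists. Fewer were negative in the TGF-beta (10 of 22), SMAD target (4 of 11), retinoic acid (2 of 7), p53 (3 of 17) and other TRIM (5 of 20) lists. Baz1b was at 218 ± 7.54 and 173 ± 20.2 CPM (adjusted p = 0.171) and Baz1a at 176 ± 11.4 and 146 ± 13.9 CPM (adjusted p = 0.258). Both genes encode chromatin remodelling subunits.

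**Figure D4:**
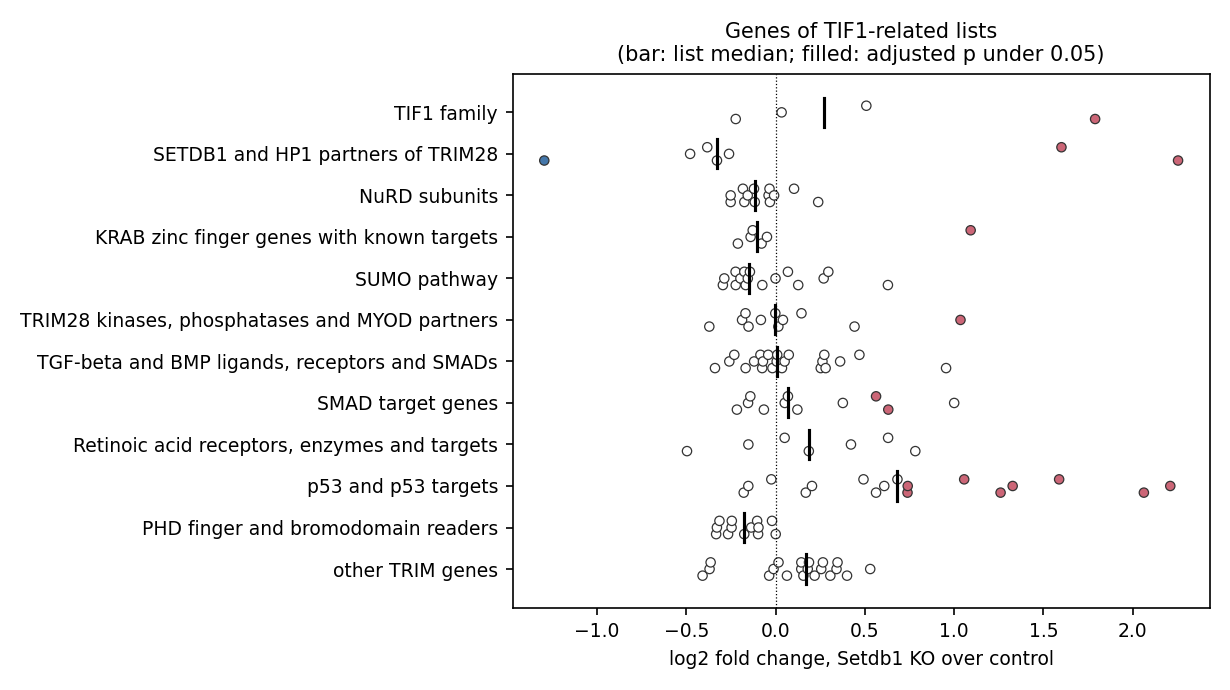
Log2 fold change of Setdb1 KO over control (horizontal axis) for every tested gene of the TIF1 family and of the related lists (rows). Each point is a gene, the bar is the median of its list, red and blue points were called higher and lower by edgeR at an adjusted p under 0.05, and open points were not called. Trim24 is the only filled point in the TIF1 row, and the p53 list holds 8 filled points.

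The genes whose levels followed each TIF1 gene most closely were found by Pearson correlation of log2 CPM over the 6 libraries, as a description, among 6919 protein-coding genes of at least 10 CPM (6920 for Trim66). For Trim24 they were Twsg1 (r = 0.999), which encodes a secreted BMP modulator, Dop1b (0.997) and Mcfd2 (0.996), an adaptor gene of secretory cargo, all of which were called higher in KO cells (log2 fold changes 1.5, 3.25 and 0.71). Mcfd2 had an adjusted p of 0.125 with DESeq2 and of 0.0501 when control library 2 was left out, which ended its call. For Trim28 they were Polr1a (0.993), the largest subunit of RNA polymerase I, Donson (0.991), a replication factor, and Lbh (0.989). For Trim33 they were Sec24a (0.994), a vesicle coat gene, Utrn (0.992), which encodes the dystrophin relative utrophin, and Fnip2 (0.987), and for Trim66 Reps1 (0.984), Ano8 (0.969) and Samm50 (0.964). In edgeR none of these 9 passed. The points share their libraries and depth. For Trim24 and Trim28, whose groups did not overlap, they also share the split into groups. Polr1a, Donson and Lbh, like Trim28, were measured lower in KO cells (log2 fold changes -0.29, -0.26 and -0.42).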

How the data were processed

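The members, lists and tests were chosen with earlier results of these data known. The table the authors deposited holds raw counts, 1 row per Ensembl gene and 1 column per library. The submitters' processing notes name GRCm38, Salmon, STAR and DESeq2 1.34.0. Counting tool, strandedness and annotation release: not given in the sources used here. Per the labels' protocols, ribosomal RNA was depleted from 400 ng of total RNA for a stranded total RNA kit with paired reads of 75 bases, though a SMARTER mRNA kit is also named. A ribosomal RNA gene still took 28.6% to 38.4% of counts. The labels call the libraries biological replicates, and p-values set the difference between the groups against the variation between libraries. No 2 libraries of a group agreed within sampling noise.

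Here, edgeR 4.0.16 in R 4.3.3 (quasi-likelihood, robust, TMM, default low-count filter, two-sided) was fitted to all 6 libraries. Benjamini-Hochberg adjustment covered 11224 genes, with a threshold of 0.05. The fit was also tested on simulated data. There the share of false calls was above the threshold, and most changes of the smallest simulated size were missed. SE and 95% intervals were derived from the log2 fold change and F. Symbols came from a table of Ensembl names (55227 of 55487 matched), coordinates and exons from GENCODE M21 on GRCm38. Named genes were the TIF1 members, Setdb1, up to 4 called genes of each list by p or else the 2 most abundant, the called or 3 most abundant other TRIM genes, the 3 genes most alike to each member (prior count 2) and the nearest tested neighbours, except genes not reported here. The 16 alternatives covered normalisation, filtering, DESeq2 1.42.0, limma-voom (limma 3.58.1), a replicate block, removal of mitochondrial and ribosomal RNA genes, and libraries left out.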

Additional observations from a re-analysis of the deposited data

How the results depend on the processing

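The number of TIF1 genes called was 1, Trim24, in the main and all 16 alternative analyses, and Trim28 and Trim66 kept their direction without being called in any. Leaving out 1 library in turn gave log2 fold changes of 1.71 to 1.86 for Trim24, -0.26 to -0.19 for Trim28 and 0.19 to 0.74 for Trim66. Trim33 had no stable sign: -0.042 with library totals alone, -0.0061 without the low-count filter, -0.0080 without control library 3 and KO library 1 together, and -0.076 to 0.15 with 1 library left out. Other log2 fold changes near 0 also changed sign. Without those 2 libraries together they were 0.041 for Sumo2, -6.6e-06 for Usp9x, -0.090 for Bmpr2 and 0.017 for Rara. With 1 library left out they ran from -0.18 to 0.0024 for Sumo2, -0.054 to 0.11 for Usp9x, -0.11 to 0.18 for Bmpr2, -0.29 to 0.022 for Rara and -0.23 to 0.53 for Ptn. Library totals alone gave -0.024 for Usp9x and -0.046 for Bmpr2, and no filter gave -0.0065 for Bmpr2. Genes called over the whole table numbered 318 in the main analysis, 511 without the low-count filter, 184 with DESeq2 and 152 to 345 with 1 library left out (157 when control library 2 was left out, 152 for KO library 1 and 180 for KO library 2), and the cause was not tested.

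With the longest transcript as gene length, the Trim24 share of the family became 7.88% in control and 25.2% in KO libraries, that of Trim33 10.6% and 9.98%, and that of Trim28 in KO libraries 63.5%, because the annotated exons of Trim24 sum to 8521 bases and its longest transcript has 4042.

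The labels do not say that replicate numbers pair the libraries, and deviations of same-numbered libraries correlated at 0.14, -0.09 and -0.06, so they were not taken as pairs. With a replicate block the log2 fold change of Trim24 was 1.79 (adjusted p = 5.79e-06), no other TIF1 gene was called, the call of Id1 ended (adjusted p = 0.0558), 0 of the SMAD targets were called, and 247 genes were called in all. Trim66 had the fewest counts of the family, 96 in control and 125 in KO libraries.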
